A study of Mus musculus with 18 samples.

Results

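Acacb, Mlycd, Cpt1a, Cpt1b, Slc25a20 and Cpt2 encode the enzymes and the carrier that set how much long-chain fatty acid enters mitochondria. They were taken by name from the deposited expression values, and are 6 of the 21899 genes listed. They were chosen by the difference of the Acacb FPKM between diets in liver and by the FPKM of the members across tissues. The liver values of all members and every diet value of Acacb are therefore a description without a test, and so are the levels of the members across tissues. Of the other members, 4 were tested for diet in eWAT and 5 in muscle, since Cpt1b was too low for a test in eWAT.

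RNA of liver, epididymal white adipose tissue (eWAT) and quadriceps muscle came from wild-type male C57BL/6 mice that were 18 weeks old. The mice of the HSD group had received a high-salt diet with saline as drinking water for 12 weeks, and those of the CON group had received chow and tap water. Each tissue has 3 CON and 3 HSD libraries, 18 in all. By the library names, the eWAT and muscle libraries came from the same mice, some of which also gave liver. Values are FPKM, that is, fragments scaled by the exon length of a gene and by the total of the library. Levels of different genes can thus be compared per length, with the limit for Cpt1b that most of its exon bases are shared with another annotated gene.

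Malonyl-CoA is made from acetyl-CoA by acetyl-CoA carboxylase. The carboxylase encoded by Acacb sits at the outer mitochondrial membrane, where its malonyl-CoA inhibits carnitine palmitoyltransferase 1, while the cytosolic carboxylase encoded by Acaca supplies fatty acid synthesis. Malonyl-CoA decarboxylase, encoded by Mlycd, removes malonyl-CoA. Carnitine palmitoyltransferase 1 moves a fatty acyl group from CoA to carnitine. Cpt1a encodes the form known from liver and Cpt1b the form known from muscle. The carrier encoded by Slc25a20 exchanges acylcarnitine for carnitine across the inner membrane, and carnitine palmitoyltransferase 2, encoded by Cpt2, returns the acyl group to CoA inside. The malonyl-CoA control of this shuttle is known to help switch liver and muscle between carbohydrate and fat as fuel.

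The members lie on separate chromosomes of the mouse build mm10. Acacb (ENSMUSG00000042010) spans chr5:114146535-114250761 on the plus strand, Mlycd (ENSMUSG00000074064) chr8:119394878-119411102, Cpt1a (ENSMUSG00000024900) chr19:3322334-3385733 and Slc25a20 (ENSMUSG00000032602) chr9:108662088-108684641, all on the plus strand. Cpt1b (ENSMUSG00000078937) spans chr15:89416405-89425863 and Cpt2 (ENSMUSG00000028607) chr4:107903981-107923610, both on the minus strand. None of the exon bases of Acacb, Mlycd, Cpt1a, Slc25a20 or Cpt2 overlap another annotated gene on the same strand, whereas most of those of Cpt1b do.

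The windows around the annotated starts of Acacb, which differed most between diets in liver, and of Mlycd, the member that passed the adjusted p in muscle, are shown because they have different core letters. RefSeq (GRCm38.p6) gives 250 bases before to 50 bases after a start. Both sequences are on the plus strand, chr5:114165268-114165567 for Acacb and chr8:119394644-119394943 for Mlycd, with matches to the motifs searched in capitals.
Acacb: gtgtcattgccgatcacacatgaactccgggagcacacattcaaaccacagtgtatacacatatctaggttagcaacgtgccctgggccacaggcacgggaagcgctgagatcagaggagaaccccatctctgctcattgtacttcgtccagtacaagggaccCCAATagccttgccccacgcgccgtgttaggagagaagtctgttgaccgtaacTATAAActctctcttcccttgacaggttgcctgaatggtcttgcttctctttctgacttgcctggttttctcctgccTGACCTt
Mlycd: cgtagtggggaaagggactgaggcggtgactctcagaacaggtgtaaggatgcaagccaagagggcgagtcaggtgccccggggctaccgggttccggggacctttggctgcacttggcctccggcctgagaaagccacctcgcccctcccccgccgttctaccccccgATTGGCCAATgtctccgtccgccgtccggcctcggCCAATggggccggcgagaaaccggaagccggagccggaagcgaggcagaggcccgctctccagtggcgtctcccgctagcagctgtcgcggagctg

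The Acacb window belongs to the start of the transcript Acacb-201, 18983 bases downstream of the first annotated start of the gene, that of Acacb-202. FPKM per gene do not separate the transcripts. The Acacb window holds a TATA box (TATAAA) 34 bases before the start, a CCAAT box (CCAAT) 87 bases before it and the nuclear receptor hexamer AGGTCA on the minus strand 43 bases after it. The Mlycd window holds 3 CCAAT boxes, at 81, 76 and 46 bases before the start, of which the first is on the minus strand. It abuts the second without sharing a base. The other members with a window, Cpt1a, Slc25a20 and Cpt2, hold 3 GC boxes (GGGCGG) each, and Cpt1a also holds a CCAAT box and an AGGTCA on the minus strand. Cpt1b had no entry. Over both strands of 32851 such windows, TATAAA was found in 13.6%, CCAAT in 37.4%, GGGCGG in 35.7% and AGGTCA in 16.3%. The E-box CACGTG (in 7.15% of windows) and the sterol regulatory element TCACNCCAC (in 1.24%) were in none of the 5 windows. A match is a description of the letters and no evidence of binding.

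The libraries held 7628071 to 16637489 fragments. Each tissue carried its defining markers: 10 of 10 hepatocyte markers in every liver library, 8 of 8 adipocyte markers in every eWAT library and 12 of 12 skeletal muscle markers in every muscle library reached 1 FPKM. The summed hepatocyte markers were nonetheless 17000 FPKM in CON14L and 39300 FPKM in HS5L against 65500 to 89800 FPKM in the other liver libraries. Several libraries stood apart. The share of mitochondrially encoded fragments was 60.82%, 25.71% and 37.84% in the liver libraries CON14L, CON16L and CON72L and 16.26%, 15.38% and 44.39% in HS2L, HS4L and HS5L, against 3.52 to 16.5% in the other tissues. The liver library CON16L had all 12 skeletal muscle markers above 1 FPKM, with a sum of 5540 FPKM against 3.05 to 7.21 FPKM in the other liver libraries. In eWAT, HS3W had all 8 epididymal epithelium markers, with a sum of 17500 FPKM against 1.27 to 10.2 FPKM in the others, and an adipocyte marker sum of 6530 FPKM against 15500 to 21300 FPKM. The summed macrophage markers were lower in every HSD library than in the CON libraries of its tissue, at 17.9 to 28.5 against 32.5 to 53.9 FPKM in liver, 226 to 485 against 526 to 778 FPKM in eWAT and 34.7 to 38.7 against 50.0 to 81.6 FPKM in muscle. Male germ cell markers summed to 35.2 to 581 FPKM in the HSD eWAT libraries and 0.189 to 47.2 FPKM in the CON ones. There, skeletal muscle markers summed to 34.2 to 49.5 FPKM in HSD and 10.3 to 20.6 FPKM in CON. In eWAT, 3 to 5 of 10 hepatocyte markers reached 1 FPKM in HSD against 9 to 10 in CON. Their sum did not follow that count, at 2150, 672 and 2580 FPKM in HS2W, HS3W and HS5W against 1120 to 1630 FPKM in CON. The part of these differences in the results was not tested. In bulk tissue, fewer cells of a type and less RNA per cell cannot be told apart. The study's table of reads does not list HS5W of eWAT, nor CON16L and HS5L of liver, and gives no reason. For Acaca and the members that were fitted, values without them are given beside the differences by diet, as values over the listed libraries. For other genes of eWAT they are not given.

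Acacb was low in the liver of HSD mice and not in their eWAT or muscle. The CON livers had 6.38, 6.49 and 5.10 FPKM in CON14L, CON16L and CON72L, and the HSD livers had 0.319, 0.390 and 0.838 FPKM in HS2L, HS4L and HS5L. Every HSD library lay below every CON library, and the highest HSD value came from HS5L. The means were 5.99 ± 0.776 FPKM in CON and 0.516 ± 0.281 FPKM in HSD (SD, n = 3 each), a ratio of 11.6. The values rest on 449 to 727 fragments in CON and 32 to 69 fragments in HSD. The difference on the log2(FPKM + 0.5) scale, where changes at low FPKM come out too small, was -2.70 (SE 0.25), and -2.83 relative to the median of all genes.

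The difference was as large without CON16L and HS5L. Over the other 4 liver libraries, which are the listed ones and keep CON14L, Acacb had 5.74 ± 0.911 FPKM in CON and 0.354 ± 0.0504 FPKM in HSD (SD, n = 2 each), a log2 difference of -2.86. The skeletal muscle markers of CON16L were 7.73% of their sum in the muscle library of the same mouse, and at that share the Acacb level of that muscle library would amount to 2.98 FPKM of the 6.49 FPKM in CON16L. In the other liver libraries this gives at most 0.00323 FPKM, with the mean of the muscle libraries in place of a mouse without one (CON14L and HS4L). The log2 difference was -2.65 without CON16L and -2.66 without CON14L. Rescaling after leaving out mitochondrially encoded genes gave -3.21. The HSD libraries with the lowest mitochondrial share, HS2L and HS4L, also had the lowest Acacb.

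**Figure D1:**
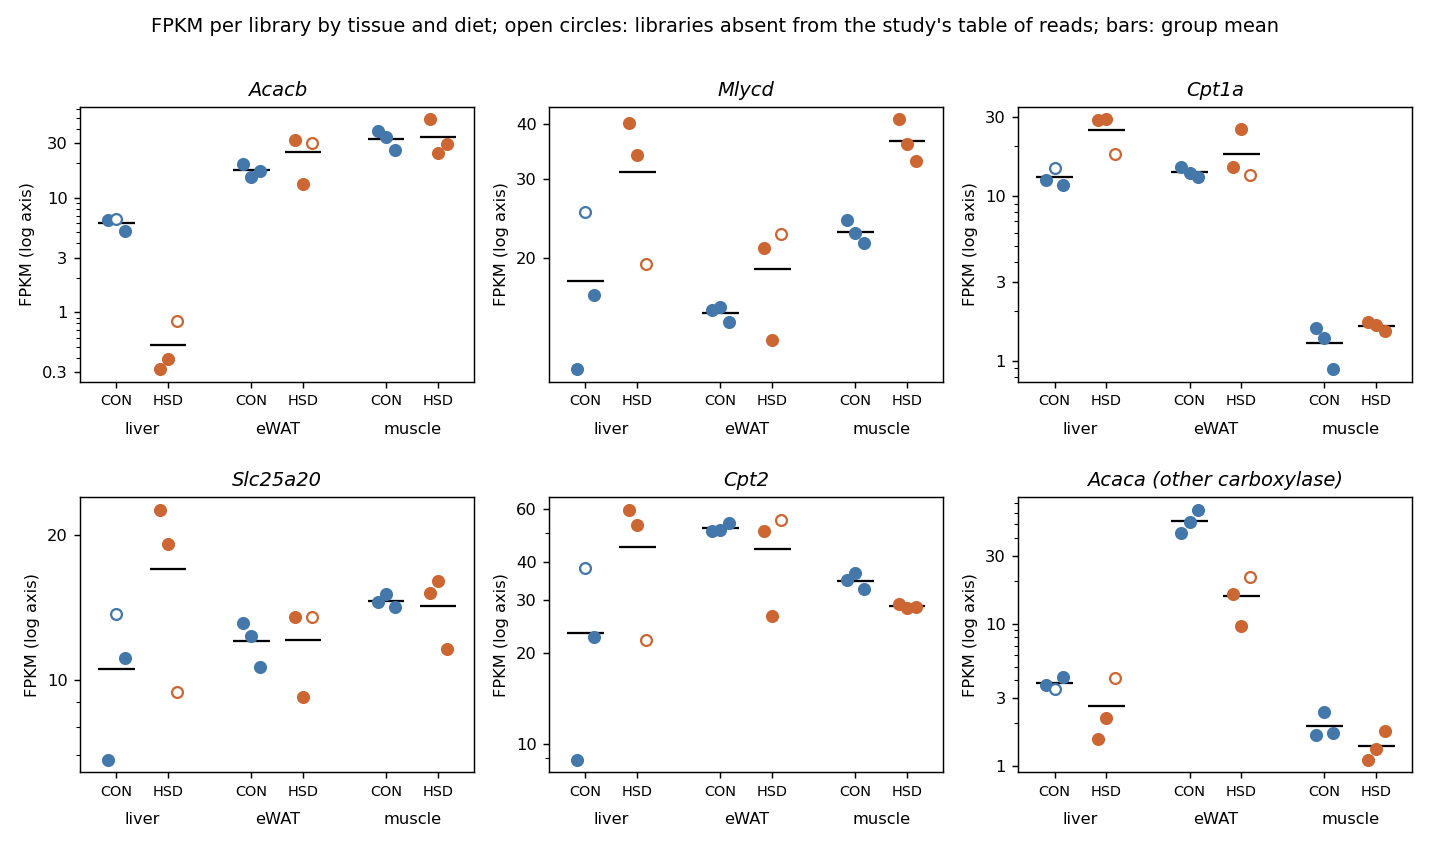
FPKM (log axes, a different range in each panel) of Acacb, Mlycd, Cpt1a, Slc25a20, Cpt2 and, for comparison, Acaca in each of the 18 libraries, by tissue and diet. Circles are libraries, open where absent from the study's table of reads, and bars are group means. Acacb lies at 5.10 to 6.49 FPKM in CON liver and at 0.319 to 0.838 FPKM in HSD liver, with overlapping groups in eWAT and muscle.

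In eWAT, Acacb had 19.8, 15.1 and 17.2 FPKM in CON16W, CON71W and CON72W and 31.9, 13.1 and 29.9 FPKM in HS2W, HS3W and HS5W. The groups overlapped through HS3W, the library with epididymal markers. On the log2 scale the difference was 0.42 (SE 0.35), and 0.82 without HS3W, where both remaining HSD libraries lay above the CON libraries. Over the listed libraries, which keep HS3W and leave out HS5W, it was 0.24.

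In muscle, Acacb had 38.6, 33.8 and 26.0 FPKM in CON16M, CON71M and CON72M and 48.4, 24.4 and 29.3 FPKM in HS2M, HS3M and HS5M. The groups overlapped, and the means of 32.8 ± 6.33 and 34.0 ± 12.7 FPKM (SD, n = 3 each) were closer to each other than the libraries within a group. Their log2 difference was 0.01 (SE 0.24). Across the CON groups Acacb was lowest in liver, at 5.10 to 6.49 FPKM, higher in eWAT, at 15.1 to 19.8 FPKM, and highest in muscle, at 26.0 to 38.6 FPKM, and neighbouring tissues did not overlap.

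The other carboxylase gene, Acaca, had another order of tissues and another pattern by diet. It had 43.2, 51.9 and 63.1 FPKM in the CON eWAT libraries and 16.2, 9.69 and 21.4 FPKM in the HSD ones. All HSD eWAT libraries lay below the CON libraries. The log2 difference was -1.76 (SE 0.30) with an adjusted p of 0.12 by limma over all 13740 genes tested, so Acaca did not pass the threshold with all libraries at equal weight. It passed without HS3W (-1.46, adjusted p = 0.0228), with arrayWeights (-1.59, adjusted p = 0.014) and with all 18 libraries in 1 fit (-1.76, adjusted p = 0.0071), and over the listed libraries, which keep HS3W, it did not (-2.01, adjusted p = 0.165). Of the 13740 genes tested in eWAT, 0.0% were called by limma, with 2298 at an unadjusted p under 0.05. Voom called none of 13428 genes, with 2144 at an unadjusted p under 0.05, while 220 genes were called with arrayWeights and 214 with all 18 libraries in 1 fit. Acaca in liver had 3.69, 3.50 and 4.25 FPKM in CON and 1.54, 2.17 and 4.17 FPKM in HSD, and HS5L fell within the CON range. The liver log2 difference of Acaca was -0.55 (SE 0.32), and -0.93 over the listed libraries, which leave out HS5L. In muscle it was at 1.66 to 2.38 FPKM in CON and 1.11 to 1.76 FPKM in HSD.

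The ratio of Acacb to Acaca within a library does not depend on how libraries were scaled. In liver it was 1.73, 1.85 and 1.20 in CON and 0.207, 0.180 and 0.201 in HSD. The 1.85 is that of CON16L, the liver library with skeletal muscle markers, and the muscle library of that mouse had 23.3. At its muscle marker share, 2.98 of the 6.49 FPKM of Acacb in CON16L would come from muscle. The part of this in the ratio was not tested. HS5L, whose levels of both genes were the highest of the HSD livers, had a ratio between those of the other HSD livers. In eWAT the ratio went the other way, from 0.458, 0.290 and 0.273 in CON to 1.97, 1.35 and 1.39 in HSD. HS3W did not stand apart from the HSD eWAT libraries in this ratio. In muscle the ratio was 23.3, 14.2 and 15.3 in CON and 43.7, 18.7 and 16.7 in HSD, and the groups overlapped. Acacb was thus the more abundant carboxylase transcript in CON liver, in HSD eWAT and in all muscle libraries, and Acaca in HSD liver and CON eWAT.

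**Figure D2:**
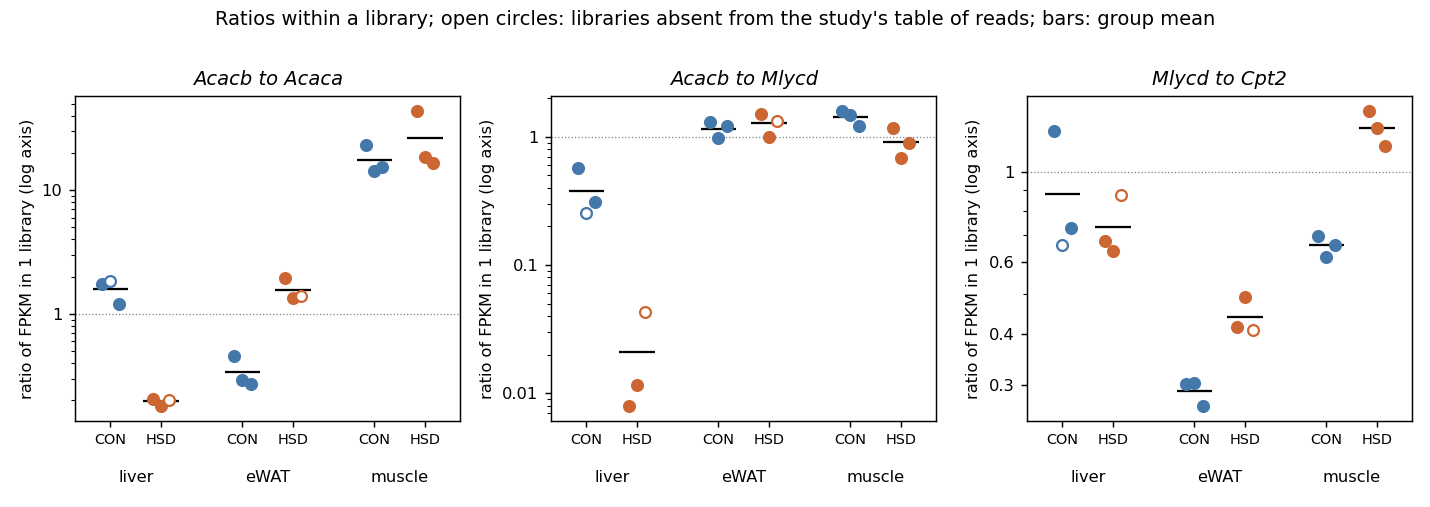
Ratios of FPKM within a library (log axes) of Acacb to Acaca, Acacb to Mlycd and Mlycd to Cpt2, by tissue and diet. Circles are libraries, open where absent from the study's table of reads, bars are group means and the dotted line is equal FPKM. Acacb to Acaca is 0.180 to 0.207 in HSD liver against 1.20 to 1.85 in CON liver, and 1.35 to 1.97 in HSD eWAT against 0.273 to 0.458 in CON eWAT.

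Mlycd, whose product degrades malonyl-CoA, was higher in the muscle of HSD mice. It had 24.3, 22.7 and 21.6 FPKM in CON16M, CON71M and CON72M and 41.0, 36.0 and 32.9 FPKM in HS2M, HS3M and HS5M. All HSD libraries lay above the CON libraries. The means were 22.9 ± 1.34 and 36.6 ± 4.04 FPKM (SD, n = 3 each), and the log2 difference was 0.66 (SE 0.12) with an adjusted p of 0.0453 by limma. Mlycd thus passed the adjusted p but not the log2 difference of at least 1 that a call also needs here. Of the 10834 genes tested in muscle, 0.323% were called by both criteria and 0.895% had an adjusted p under 0.05.

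The adjusted p of Mlycd in muscle lay near its limit, and it depended on single libraries. With the replicate number as a block it was 0.0182, and by limma voom on the recovered fragments 0.0297. It was 0.103 with no filter on low FPKM and 0.0572 without the variance trend. With all 18 libraries in 1 fit, where the liver and eWAT libraries enter the spread too, it was 0.814. Without CON16M it was 0.123, without CON71M 0.142, without CON72M 0.171, without HS3M 0.107 and without HS5M 0.087, and only without HS2M did it stay under 0.05, at 0.0423. The log2 difference was 0.58 to 0.74 over these leave-one-out fits.

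Mlycd in eWAT had 15.3, 15.5 and 14.3 FPKM in CON and 20.99, 13.1 and 22.6 FPKM in HS2W, HS3W and HS5W. HS3W lay below the CON libraries and the other HSD libraries above them. This gave a log2 difference of 0.28 (SE 0.21, adjusted p = 0.508 by limma). Without HS3W it was 0.52 (adjusted p = 0.0258 by limma), and with arrayWeights, which keep HS3W, 0.49 (adjusted p = 0.0262 by limma). Both are under the log2 difference of at least 1. With arrayWeights, 1439 of the 13740 genes tested had an adjusted p under 0.05. Over the listed libraries, without HS5W, the log2 difference of Mlycd was 0.14 (adjusted p = 0.705 by limma). Without HS3W, 160 genes of eWAT were called where none was with it.

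In liver, Mlycd had 11.2, 25.4 and 16.5 FPKM in CON14L, CON16L and CON72L and 40.1, 34.0 and 19.4 FPKM in HS2L, HS4L and HS5L. HS5L lay within the CON range. HSD minus CON was 0.81 on the log2 scale (SE 0.43), 0.45 with mitochondrially encoded genes left out and 1.41 over the listed libraries. The ratio of Acacb to Mlycd was 0.569, 0.256 and 0.310 in CON liver and 0.00795, 0.0115 and 0.0433 in HSD liver, with no overlap. In muscle this ratio was 1.21 to 1.59 in CON and 0.679 to 1.18 in HSD, and in eWAT 0.972 to 1.30 and 1.00 to 1.52.

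Cpt1a, the liver form of the enzyme that malonyl-CoA inhibits, had 12.5, 14.7 and 11.7 FPKM in CON liver and 28.8, 29.2 and 17.8 FPKM in HSD liver. The HSD libraries all lay above the CON libraries, with HS5L the nearest to them. The log2 difference was 0.91 (SE 0.31), 1.23 over the listed libraries and 0.55 with mitochondrially encoded genes left out. Of the members whose liver values could be fitted, Cpt1a alone had all HSD livers above the CON livers and Acacb alone had them all below, in a comparison that chose the members and where 8.62% and 3.47% of 10317 genes did so. Over the 4 listed libraries, where those shares were 45.3% and 19.3%, Mlycd, Cpt1a, Slc25a20 and Cpt2 all lay above.

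**Figure D3:**
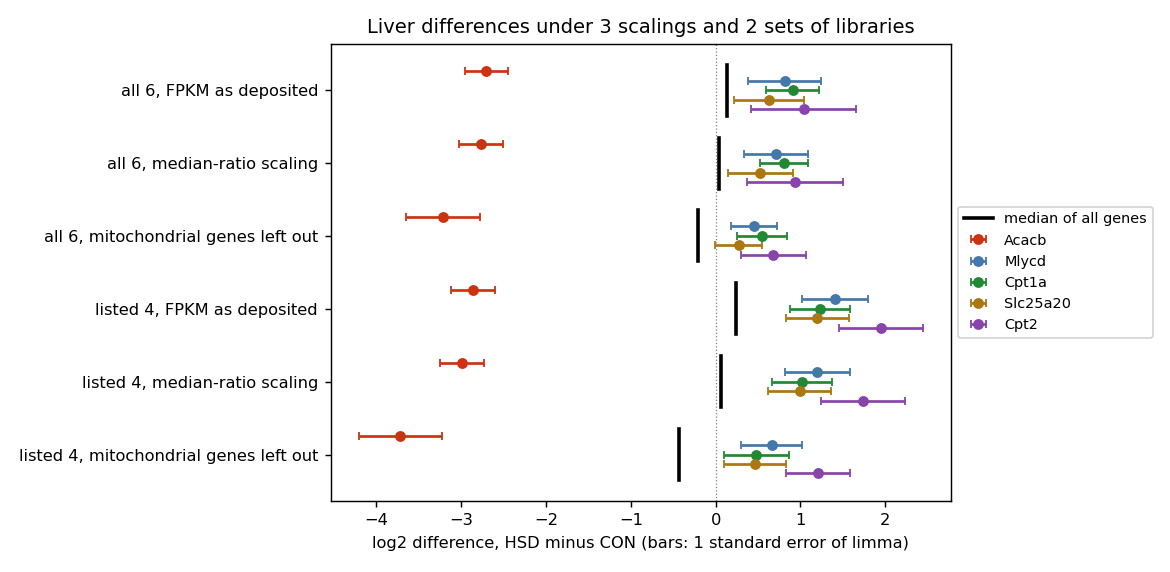
Liver log2 differences between HSD and CON on the log2(FPKM + 0.5) scale for Acacb, Mlycd, Cpt1a, Slc25a20 and Cpt2, with FPKM as deposited, with median-ratio scaling and with mitochondrially encoded genes left out, over all 6 liver libraries and over the 4 listed ones. Points are limma estimates, bars 1 standard error, and black marks the median of all genes. Acacb lies between -3.72 and -2.70 in all 6 settings, and the other 4 genes lie above 0 and above the median.

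Leaving out the mitochondrially encoded genes rescales all other genes of a library alike, so values relative to the median of all genes change little by construction and say nothing about the mitochondrial share. The median was 0.13 with FPKM as deposited and -0.20 with mitochondrially encoded genes left out. Relative to it, Cpt1a stood at 0.78 and 0.75, Cpt2 at 0.91 and 0.88, Mlycd at 0.68 and 0.65 and Slc25a20 at 0.50 and 0.48 on the log2 scale, over all 6 libraries.

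In eWAT, Cpt1a had 15.0, 13.8 and 13.0 FPKM in CON and 15.0, 25.4 and 13.4 FPKM in HSD. The high value was that of HS3W, and the other libraries of both diets lay between 13.0 and 15.0 FPKM. The log2 difference was 0.30 (SE 0.24, adjusted p = 0.532 by limma), 0.02 without HS3W and 0.47 over the listed libraries (adjusted p = 0.327 by limma). In muscle, Cpt1a was at 1.58, 1.38 and 0.889 FPKM in CON and 1.72, 1.64 and 1.51 FPKM in HSD, with overlapping groups (log2 difference 0.27, SE 0.17, adjusted p = 0.452 by limma). Cpt1a was thus at similar levels in CON liver and CON eWAT, whose libraries overlapped, and lower in every muscle library.

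Cpt1b, the muscle form, was listed with few fragments in every tissue. It had 0 to 2 fragments in a liver library, 1 to 7 in an eWAT library and 18 to 48 in a muscle library. In muscle the FPKM were 1.07, 0.726 and 0.557 in CON and 0.713, 0.411 and 0.430 in HSD, and the groups overlapped (log2 difference -0.33, SE 0.19, adjusted p = 0.432 by limma). Most of the gene's exon bases are shared with another annotated gene, and the part of this in its low values was not tested. Of its 3372 exon bases, 2744 (81.4%) are shared on the same strand with Gm44502, an annotated read-through gene that spans the neighbouring Chkb and Cpt1b at chr15:89416405-89429696 and is listed at 0 in all 18 libraries. Only 628 exon bases belong to Cpt1b alone, in 4 blocks of 85, 29, 448 and 66 bases.

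Shared exons went with low values in other genes too. Of 260 protein-coding genes with at least 80% of their exon bases shared on the same strand, 255 (98.1%) had a mean below 0.5 FPKM and 194 were at 0 in every library. Of 20003 protein-coding genes with no shared exon base, 7919 (39.6%) had a mean below 0.5 FPKM. Chkb, which encodes a choline kinase and shares 50.7% of its exon bases with Gm44502, was listed at 0 to 0.994 FPKM. How the deposited values treat fragments that fit more than 1 gene was not given in the sources used here. The ratio of Cpt1b to Cpt1a was 0.526 to 0.680 in CON muscle and 0.250 to 0.414 in HSD muscle as listed, against at most 0.00872 in liver and eWAT, a description of the listed values, in which sharing with Gm44502 and a low level of Cpt1b cannot be told apart.

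Slc25a20, the carnitine-acylcarnitine carrier, had similar levels by diet in eWAT and muscle. In eWAT it had 13.1, 12.4 and 10.6 FPKM in CON and 13.5, 9.25 and 13.5 FPKM in HSD, and in muscle 14.5, 15.1 and 14.2 FPKM in CON and 15.1, 16.0 and 11.6 FPKM in HSD. The groups overlapped in both tissues. The log2 differences were -0.01 (SE 0.18, adjusted p = 0.977) in eWAT and -0.04 (SE 0.14, adjusted p = 0.908) in muscle by limma. Over the listed libraries, the eWAT difference was -0.0973 (adjusted p = 0.775 by limma). In liver Slc25a20 had 6.85, 13.7 and 11.1 FPKM in CON and 22.5, 19.1 and 9.44 FPKM in HSD. HS5L lay within the CON range there, and the log2 difference was 0.63 (SE 0.42), 1.20 over the listed libraries and 0.27 with mitochondrially encoded genes left out.

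Cpt2, the inner membrane transferase, had 34.8, 36.7 and 32.6 FPKM in CON muscle and 29.1, 28.1 and 28.3 FPKM in HSD muscle. All HSD libraries lay below the CON libraries, and the log2 difference was -0.28 (SE 0.11). Its p of 0.0287 did not hold after adjustment (adjusted p = 0.248 by limma). Mlycd and Cpt2 were the 2 members whose muscle groups did not overlap, Mlycd above and Cpt2 below, where 6.72% of the genes tested in muscle lay above and 15.6% below. In eWAT, Cpt2 had 50.6, 51.1 and 53.8 FPKM in CON and 50.5, 26.5 and 55.1 FPKM in HSD. The low value was again HS3W, so that the log2 difference of -0.30 (SE 0.28, adjusted p = 0.567 by limma) became 0.02 without it and -0.50 over the listed libraries. No member had non-overlapping groups in eWAT among those tested, where 16.2% of genes lay above and 12.4% below.

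In liver, Cpt2 had 8.88, 38.3 and 22.6 FPKM in CON14L, CON16L and CON72L and 59.5, 53.1 and 22.0 FPKM in HS2L, HS4L and HS5L, a log2 difference of 1.04 (SE 0.61). The libraries with the highest mitochondrial share and the lowest hepatocyte marker sums, CON14L and HS5L, had the lowest values, and their part was not tested. With mitochondrially encoded genes left out the log2 difference was 0.68, and over the listed libraries 1.95. There the mitochondrial share was 60.82% and 37.84% in CON and 16.26% and 15.38% in HSD, so that it and diet cannot be told apart in those 4 libraries. Over the 6 liver libraries, Mlycd, Slc25a20 and Cpt2 moved together, with Pearson r of 0.972 to 0.98 between them, a description of values that come from the same libraries with the same mitochondrial share and depth.

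The order of the shuttle members differed by tissue. In CON liver the 4 members other than Acacb and Cpt1b overlapped in their ranges, which ran from 6.85 to 38.3 FPKM. In CON eWAT, Cpt2 was the highest member at 50.6 to 53.8 FPKM, and the ranges of Acacb, Mlycd, Cpt1a and Slc25a20 lay between 10.6 and 19.8 FPKM. In CON muscle, Acacb and Cpt2 overlapped at 26.0 to 38.6 FPKM, Mlycd followed at 21.6 to 24.3 FPKM and Slc25a20 at 14.2 to 15.1 FPKM, with no overlap between those 3 steps, and Cpt1a was at 0.889 to 1.58 FPKM. The ratio of Mlycd to Cpt2 was 0.697, 0.619 and 0.662 in CON muscle and 1.41, 1.28 and 1.16 in HSD muscle, so that Mlycd was below Cpt2 in every CON library and above it in every HSD library. The 10 ratios computed per tissue were 9 between members and that of Acacb to Acaca. No overlap between diets was seen for 5 in muscle, 3 in eWAT and 3 in liver. The ratios reuse the same genes and are not independent, and no share over ratios of other genes was computed. Those without overlap in liver all had Acacb, chosen for its difference there, as numerator. Mlycd to Slc25a20 was among those of muscle, at 1.51 to 1.67 in CON and 2.24 to 2.84 in HSD. It was also among those of eWAT, at 1.16 to 1.35 in CON and 1.41 to 1.67 in HSD. In eWAT the ratio of Mlycd to Cpt2 was 0.302, 0.303 and 0.266 in CON and 0.416, 0.493 and 0.410 in HSD, HS3W included, with no overlap. In liver the groups overlapped, at 0.662 to 1.26 in CON and 0.640 to 0.879 in HSD.

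**Figure D4:**
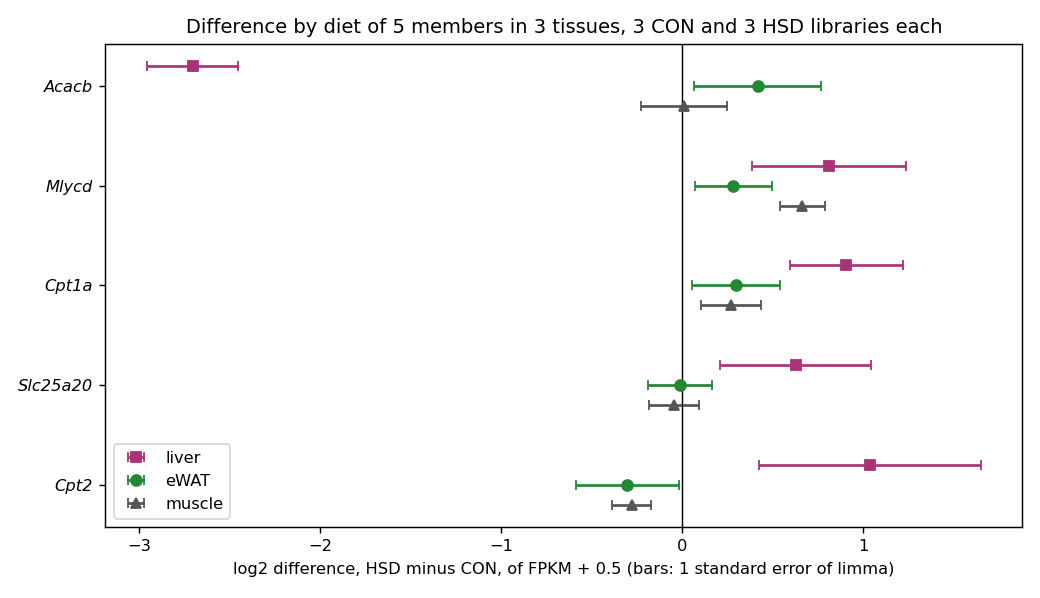
Log2 difference between HSD and CON of FPKM + 0.5 for 5 members in liver, eWAT and muscle, 3 CON and 3 HSD libraries each. Points are limma estimates and bars 1 standard error. Acacb in liver is at -2.70, and the other points lie between -0.30 and 1.04.

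The difference of the diet effect between eWAT and muscle was tested in 1 limma model of all 18 libraries. It was -0.38 (SE 0.42, adjusted p = 0.851) for Mlycd, 0.03 (adjusted p = 0.991) for Cpt1a, 0.03 (adjusted p = 0.991) for Slc25a20 and -0.02 (adjusted p = 0.995) for Cpt2, as eWAT minus muscle on the log2 scale. Cpt1b was too low to be tested. None passed, and 0.0% of 13067 genes did, with 1045 at an unadjusted p under 0.05. The eWAT and muscle libraries came from the same mice, and this model took them as independent. With the mouse as a random block (consensus correlation 0.0222) none passed either, and the adjusted p of Mlycd was 0.839 by limma. Without the block, the standard errors of 0.34 to 0.62 come from 1 spread over all 18 libraries, the liver ones included. Fitted by tissue, the standard error of Mlycd was 0.43 in liver and 0.21 in eWAT. Standard errors of 0.34 to 0.62 are large beside the differences, and a p over the threshold does not show equal effects. The liver contrast was not compared in this way, because it chose the members.

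Other genes of the pathway were taken from 6 lists with 41 genes, 40 of them listed. By adjusted p, none of the 39 tested in eWAT and none of the 37 tested in muscle passed in either direction, with 5 at an unadjusted p under 0.05 in each tissue. Without HS3W, 6 list genes of eWAT had an adjusted p under 0.05, and Acaca (-1.46) and Acly (-1.92) were past the log2 difference of 1 as well. The other 4 were Slc16a9 (-0.97), Mid1ip1 (-0.78), Ppargc1a (0.86) and Ppargc1b (0.99). The list of malonyl-CoA supply and of AMP-activated kinase, which inhibits the carboxylases, had 13 genes. In eWAT, 6 were higher and 7 lower in HSD, with a median log2 difference of -0.04 against 0.08 for all genes. In muscle, 2 were higher and 11 lower, with a median of -0.16 against -0.06. Acly, which makes cytosolic acetyl-CoA from citrate, had 151 ± 55.2 and 69.7 ± 55.6 FPKM in eWAT (SD, n = 3 each, adjusted p = 0.323 by limma) and 6.23 ± 1.52 and 4.17 ± 0.620 FPKM in muscle (adjusted p = 0.197 by limma). In muscle, Prkag3, a regulatory subunit of the kinase, had 63.4 ± 9.86 FPKM in CON and 39.4 ± 8.53 FPKM in HSD without overlap (log2 difference -0.69, adjusted p = 0.104 by limma, and 0.0191 with the replicate number as a block).

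Carnitine synthesis and uptake had 5 genes tested in eWAT, 4 higher and 1 lower. Slc22a5, the carnitine uptake transporter, had 15.8 ± 3.10 FPKM in CON eWAT and 27.0 ± 2.92 FPKM in HSD eWAT (log2 difference 0.77, adjusted p = 0.147 by limma). Slc16a9, a transporter linked to carnitine efflux, had 2.71 ± 0.435 and 0.967 ± 0.390 FPKM (log2 difference -1.15, adjusted p = 0.145 by limma). Both had groups without overlap and neither passed the adjusted p with all libraries, while in 1 fit of all 18 libraries both did (0.0397 and 0.00593 by limma). The 6 genes of the first steps of beta-oxidation had negative log2 differences in eWAT and in muscle, where 40.9% and 60.8% of all genes did, with medians of -0.12 and -0.20 against 0.08 and -0.06 for all genes. None passed. In eWAT this sign rested on HS3W, since without it 1 of the 6 was negative and the median was 0.03. Acadm had 108, 113 and 108 FPKM in CON eWAT and 107, 49.4 and 115 FPKM in HS2W, HS3W and HS5W. In muscle, Acadvl had a log2 difference of -0.39 (adjusted p = 0.302 by limma). These genes encode the acyl-CoA dehydrogenases and the later enzymes that shorten acyl-CoA.

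The remaining lists are fatty acid activation, the other carnitine acyltransferases and the transcription regulators. Fatty acid activation had a median log2 difference of 0.22 over 4 genes in eWAT and -0.09 over 5 genes in muscle, and Acsl4, a long-chain acyl-CoA synthetase, had 7.61 ± 0.532 and 18.4 ± 20.5 FPKM in eWAT (adjusted p = 0.609 by limma). The other carnitine acyltransferases had medians of 0.04 over 3 genes and -0.11 over 2 genes, and Crat, the acetyltransferase, had 79.4 ± 4.49 and 79.8 ± 9.74 FPKM in muscle. The 8 transcription regulators had medians of 0.01 in eWAT and -0.13 in muscle, and Ppara, a nuclear receptor that is known to drive fatty acid oxidation genes, had 2.95 ± 1.77 and 1.29 ± 1.24 FPKM in muscle (adjusted p = 0.380 by limma).

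In liver, 35 of the list genes could be fitted, and the HSD libraries lay above the CON libraries for 5 and below for 1, where the shares over all genes were the 8.62% and 3.47% given for Cpt1a. The 5 were Slc22a5 at 5.64 ± 1.02 in CON and 9.61 ± 0.745 FPKM in HSD (SD, n = 3 each), Crot, the peroxisomal carnitine octanoyltransferase, at 41.3 ± 8.06 and 87.4 ± 30.2 FPKM, Ppara at 2.87 ± 0.610 and 4.79 ± 1.14 FPKM, and Prkag1 and Nr1h3 with log2 differences of 0.40 and 0.35. The 1 below was Acly, at 22.5 ± 10.3 and 11.2 ± 2.58 FPKM, with a log2 difference of -0.91. The lists had medians of 0.08 for malonyl-CoA supply, 0.02 for activation, 0.73 for carnitine synthesis and uptake, 0.87 for the acyltransferases, 0.45 for beta-oxidation and -0.05 for the regulators, against 0.13 for all genes. Over the 4 listed libraries, 18 of 34 genes lay above and 5 below, near the shares of 45.3% and 19.3% over all genes.

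Genes whose pattern across libraries was most like that of a member were ranked by Pearson r of log2(FPKM + 0.5), a description of values that share libraries and depth. Over the 6 liver libraries, Rrp1b (r = 0.997), Lad1 (0.982), Gbp9 (0.982), Smo (0.978) and Dhcr7 (0.97) were nearest to Acacb. Dhcr7, the last enzyme of cholesterol synthesis, had 5.88 to 7.91 FPKM in CON liver and 1.95 to 2.67 FPKM in HSD liver. Over all 18 libraries, Tarbp1 (0.952), Lpin1 (0.946) and Rasa4 (0.942) were nearest to Acacb. Lpin1, a phosphatidate phosphatase of triglyceride synthesis, had 7.68 to 11.7 FPKM in CON liver and 1.78 to 3.51 FPKM in HSD liver, with overlapping groups in eWAT (36.8 to 43.4 and 19.5 to 58.7 FPKM) and muscle (27.1 to 36.9 and 25.9 to 40.9 FPKM).

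The nearest to the other members were ranked over all 18 libraries. For Mlycd they were Mcrip2 (r = 0.898), Fh1 (0.823) and Rpp25l (0.822), and for Cpt1a they were Tmem254a (0.987), Lrrc3 (0.985) and Slc35a3 (0.982). Slc25a20 was nearest to Oat (0.87), Txn2 (0.866) and Insig2 (0.821). Cpt2 was nearest to Ech1 (0.949), Etfa (0.932) and Mrpl4 (0.93), of which Ech1 encodes an enzyme of beta-oxidation and Etfa a subunit of the flavoprotein that takes electrons from the acyl-CoA dehydrogenases. Ech1 was, like Cpt2, lowest in CON14L among the livers, at 18.0 FPKM.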

How the data were processed

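The 18 libraries cover liver, eWAT and muscle. Adapters were removed by the authors with cutadapt and reads placed on mm10 with hisat2. According to the paper, FPKM were then obtained from cuffdiff with an Ensembl annotation. The deposited FPKM were used as they are. The labels also list HTSeq 0.9.1, a program, and mm9, a build, and give no role for either. Which program gave the deposited FPKM was not tested. With exon lengths of GENCODE M21, 97.3% of the 18822 genes above 0 were whole numbers of fragments in all libraries, within 0.01 fragments, which gave the fragment numbers and library totals.

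limma 3.58.1 under R 4.3.3 fitted log2(FPKM + 0.5) in each tissue to diet alone, with a variance trend, over genes that averaged 0.5 FPKM or more. P-values were adjusted by Benjamini-Hochberg over all genes tested, and a call needed an adjusted p under 0.05 and an absolute log2 difference of at least 1. The model of all 18 libraries tested eWAT against muscle. The fits were tested on simulated data. The authors' count test (DESeq2) was not run here. Levels and ratios used Python 3.11.15 with pandas 2.3.3.

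The members, the gene lists and the markers were chosen with earlier results of these data known. Genes named are the members, Acaca, list genes past the threshold or otherwise among the 2 with the largest difference of a list in a tissue, and the nearest by correlation. Prkag1, Nr1h3 and Mid1ip1 were named after their values were seen. CON and HSD mice are different animals. Deviations from the group mean in libraries of the same replicate number correlated at 0.383, 0.177 and 0.184 in muscle. As an alternative, the number was taken as a block in each tissue and between eWAT and muscle. The labels do not pair CON and HSD libraries by this number. Alternatives chosen after seeing the data were voom on recovered fragments and the listed libraries with another scaling. The listed libraries are those in the study's table of reads.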

Additional observations from a re-analysis of the deposited data

How the results depend on the processing

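The liver log2 difference of Acacb (-2.70) stayed negative in all 15 alternatives, from -3.72 to -2.21. It was -3.39 with a pseudocount of 0.1, -2.21 with 1, -3.21 with mitochondrially encoded genes left out, -3.72 with these left out over the listed libraries and -3.68 by voom, and -2.92 to -2.56 with 1 library left out. The cause of these shifts was not tested. No member was called in eWAT under 21 alternatives, in muscle under 17 of 18 or between eWAT and muscle under 17, and under the adjusted p alone 1 member, Mlycd, passed in muscle (log2 difference 0.66). In eWAT, Mlycd had an adjusted p under 0.05 by limma with arrayWeights (0.0262) and without HS3W (0.0258), with log2 differences under 1. The ratio of Cpt1b to Cpt1a in CON became 0.0383 in liver, 0.0395 in eWAT and 0.723 in muscle with 0.5 added to each FPKM, from 0.000923, 0.00488 and 0.611. Signs turned for small differences that were not called. For Slc25a20 these were 0.17 with arrayWeights in eWAT, -0.0973 to 0.16 with 1 eWAT library left out, 0.0418 with median-ratio scaling in muscle, -0.13 to 0.0924 with 1 muscle library left out, and, between eWAT and muscle, -0.11 with median-ratio scaling and -0.10 to 0.21 with 1 library left out. For Cpt2 they were -0.50 to 0.0248 in eWAT and -0.22 to 0.30 between tissues, both with 1 library left out. For Cpt1a between tissues they were -0.0463 with a pseudocount of 0.1, -0.10 with median-ratio scaling and -0.25 to 0.20 with 1 library left out. Under the block by replicate number, 54 genes of muscle were called in place of 35, the log2 difference of Acacb in liver was -2.70, and the block changed no member's call (0 in eWAT, 0 in muscle). Same-numbered liver libraries correlated at -0.473, 0.395 and -0.213 and eWAT libraries at -0.197, 0.061 and 0.414. In muscle an unlike-numbered pair, CON72M with HS3M, also reached 0.18, and the labels do not pair libraries by this number. Acacb in HSD liver rests on 32 to 69 fragments, and Cpt1b in any library on 48 at most.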
